A study of Rattus norvegicus with 19 samples.

Results

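Sbspon, Kcnh1, Ky, Ctdsp1 and RGD1564391 are 5 rat genes grouped as high fat responders outside lipid metabolism. The genes were chosen for a large difference of high fat diet arrays from control or high protein diet arrays. Their values in both of these comparisons are thus a description and carry no test. For no probe were all livers of the high fat diet apart from those of both other diets. The members are 5 of 16175 genes named on the array and were measured by 6 of its 41012 non-control probes, 2 of them for Ctdsp1. A probe was kept for testing where 6 or more of the 19 arrays gave a clear Cy5 signal over background, and all 6 member probes were among the 25292 kept. The livers came from male Wistar rats that ate 1 of 3 diets for 4 months from an age of 8 weeks and were killed in the fed state. By energy, the high fat diet (HF, 6 rats) held 60% fat, 20% protein and 20% carbohydrate, the high protein diet (HP, 6 rats) held 10% fat, 45% protein, mainly casein, and 45% carbohydrate, and the low fat control diet (Control, 7 rats) held 10% fat, 20% protein and 70% carbohydrate. Each array compared the Cy5-labelled RNA of 1 rat with a Cy3-labelled pool of liver RNA, and each value below is the log2 ratio of rat to pool unless another scale is named.

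The annotated genes belong to different families. Sbspon encodes a secreted protein with a somatomedin B and a thrombospondin type 1 domain. Kcnh1 encodes a voltage-gated potassium channel of the ether-à-go-go family, best known from the brain. Ky encodes a transglutaminase-like protein of the muscle Z-disc, and its loss in the mouse causes muscle degeneration and a bent spine. Ctdsp1 encodes a small phosphatase that removes phosphate from the tail of RNA polymerase II and that acts with the repressor REST to keep neuronal genes silent outside the nervous system. RGD1564391 is a predicted locus that was named here only by the files' own annotation, and no role is given for it.

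On the rn4 build used by the arrays, the Sbspon probe lay at chr5:2546719-2546778, the Kcnh1 probe at chr13:108407705-108407764 and the Ky probe at chr8:107508619-107508678. The Ctdsp1 probe A_44_P368406 was placed at chr9:73733111-73733550 and the Ctdsp1 probe A_44_P1046697 at chr9:73734785-73735287, with listed spans of 440 and 503 bases against 60 bases for the other 4 probes. The RGD1564391 probe lay at chr17:7758188-7758247, listed in reverse order. Exon, intron and UTR annotation of rn4 was not used here. RefSeq promoter sequence on the GRCr8 build, 250 bases upstream of the start site, was matched for 3 of the 5 genes (Kcnh1, Ky and Ctdsp1). The promoters of Kcnh1 and Ky are shown because HF livers stood apart from Control livers in opposite directions for these genes. Capitals mark the motif matches described after the sequences. Kcnh1 is at chr13:106252966-106253215 and Ky at chr8:111965612-111965861, both on the plus strand and written 5′ to 3′.
Kcnh1: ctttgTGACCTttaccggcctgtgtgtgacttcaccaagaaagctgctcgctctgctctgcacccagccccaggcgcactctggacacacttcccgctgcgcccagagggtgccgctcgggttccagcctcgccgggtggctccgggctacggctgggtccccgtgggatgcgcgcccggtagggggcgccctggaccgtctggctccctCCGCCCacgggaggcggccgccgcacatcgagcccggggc
Ky: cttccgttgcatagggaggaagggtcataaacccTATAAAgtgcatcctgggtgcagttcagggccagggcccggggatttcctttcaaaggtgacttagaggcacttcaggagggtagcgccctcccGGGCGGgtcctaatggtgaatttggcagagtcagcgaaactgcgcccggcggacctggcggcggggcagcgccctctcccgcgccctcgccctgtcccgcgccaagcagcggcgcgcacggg

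Both strands were searched for 7 motifs. They were the E-box CACGTG, the nuclear receptor half-site AGGTCA, the sterol regulatory element TCACNCCAC, the D-box TTANGTAA, the cAMP response element TGACGTCA, the TATA box TATAAA and the GC box GGGCGG. Kcnh1 held the half-site at position -245 and the GC box at position -40 from the start site, both on the reverse strand. Ky held TATAAA at position -216 and the GC box at position -122 on the forward strand, and Ctdsp1 held none of the 7. Of 33469 rat promoters of this length, 14.1% held the half-site, 12.9% TATAAA and 30.5% the GC box. The shares were 5.59% for the E-box, 0.974% for the sterol element, 2.04% for the D-box and 1.59% for the cAMP element. No match overlapped another.

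Spots well above background made up 54.2% to 67.5% of each array in Cy5 and 47.2% to 55.1% in Cy3. The SD of an array's log2 ratios lay between 0.20 and 0.29, except for Control 6 at 0.44. The median log2 ratio of 6 measured lymphocyte genes was 2.72 in Control 6 and between -1.27 and -0.95 in the other 18 livers. Control 6 lay within the range of the other controls for 5 of the 6 member probes and was the lowest control for Ky by a small margin (0.21, next 0.22). All 10 hepatocyte markers were kept. The arrays lay on 5 slides of up to 4 arrays, and a difference within a slide is given where a slide held both diets.

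Sbspon and Kcnh1 were higher, and Ky was lower, in every HF liver than in any control. The HP livers had means between those of HF and Control livers for all 3 genes. None of the 3 passed limma's test between HP and Control livers after Benjamini-Hochberg adjustment, where 0.447% of all kept probes were called. The carbohydrate share of the HP diet also lay between, but the diets differed in fat and protein too, and these parts cannot be told apart. By mean, the Ctdsp1 probe A_44_P368406 was highest and RGD1564391 lowest in HF livers, although single HF and Control livers overlapped for both. For both the HP mean lay at the far side from the HF mean, beyond the Control mean. The second Ctdsp1 probe, A_44_P1046697, had nearly the same mean in the 3 diets. In bulk liver RNA, fewer cells of a type and less RNA per cell cannot be told apart.

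**Figure D1:**
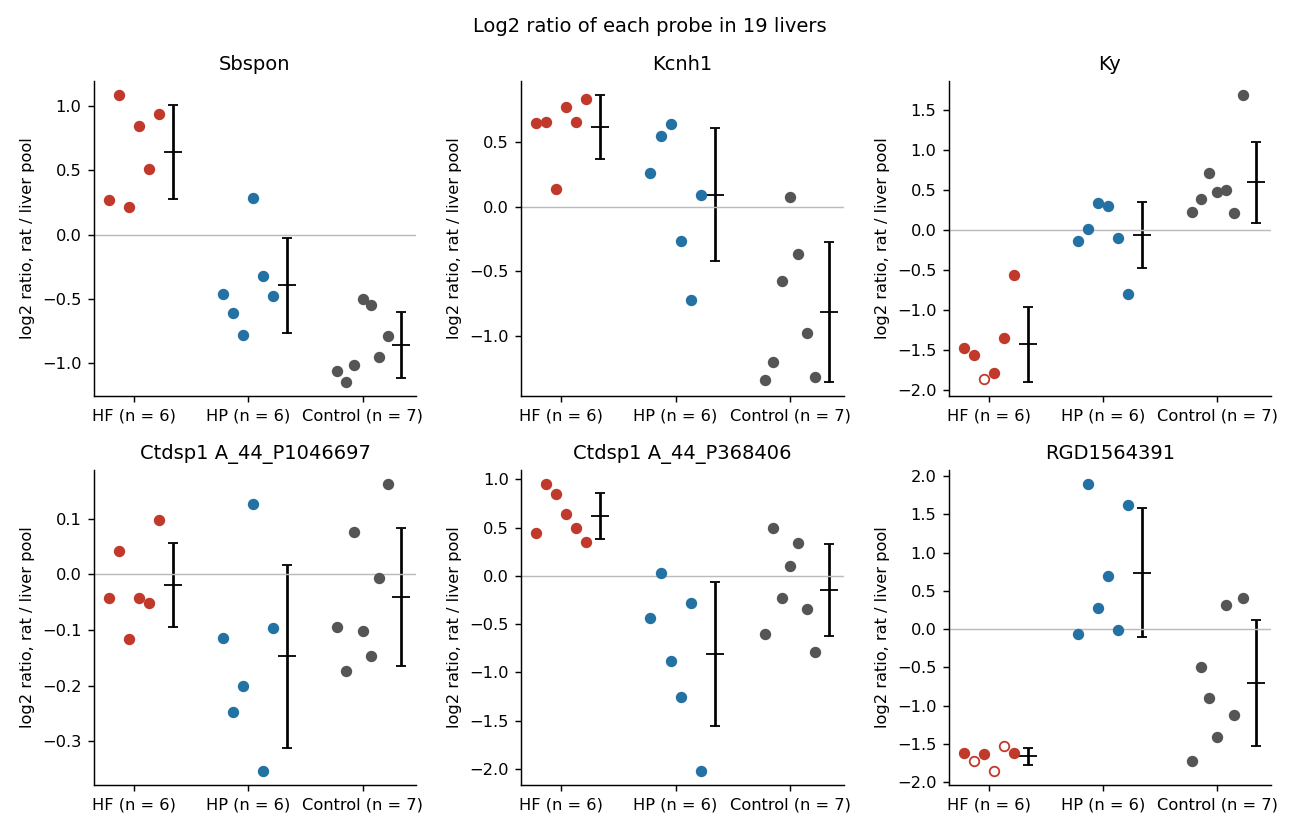
Log2 ratio of rat to liver pool (vertical axes, each panel with its own scale) for the 6 probes in HF, HP and Control livers. Each point is 1 rat, open points had a Cy5 signal not well above background, and the bars to the right of each group give its mean and SD. For Sbspon, Kcnh1 and Ky no HF point crosses a Control point, and for Ctdsp1 A_44_P368406 and RGD1564391 no HF point crosses an HP point.

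The secreted protein gene Sbspon had log2 ratios from 0.22 to 1.08 in HF livers with a median of 0.68, from -0.78 to 0.29 in HP livers with a median of -0.47, and from -1.15 to -0.50 in Control livers with a median of -0.95. All 6 HF livers lay above the highest control, and 4 of 6 lay above the highest HP liver, HP 4. Sbspon averaged 0.64 ± 0.36 in HF, -0.40 ± 0.37 in HP and -0.86 ± 0.25 in Control livers (SD, n = 6, 6 and 7). The HF minus Control difference was 1.50 ± 0.17 (log2, SE of the linear model), rank 37 by size among the 25292 kept probes. The HF minus HP difference was 1.04 ± 0.18, rank 111. The Cy5 signal was 12.2 to 21.8 times the local background in HF livers, 5.41 to 10.3 times in HP livers and 4.03 to 7.65 times in Control livers, and all 19 spots were well above background.

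Within slides 1, 3 and 4 the Sbspon difference between HF and Control livers was 1.47, 1.77 and 1.33. On slide 4, the single slide with both HF and HP arrays, the HF minus HP difference was 0.36, where HF 1 (0.27) was set against HP 1 (-0.46) and HP 4 (0.29). The median log2 ratio of 9 stellate cell and fibroblast markers, genes of matrix-producing cells, was taken per liver. It was -0.17 to 0.57 in HF (group median 0.14), -0.05 to 0.27 in HP (0.14) and -0.17 to 0.54 in Control livers (-0.10). Its part in the Sbspon difference was not tested. With Agilent's processed signals, which have another background correction, the HF minus Control difference was 2.16.

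Kcnh1, the potassium channel gene, had log2 ratios from 0.13 to 0.83 in HF livers with a median of 0.65, from -0.72 to 0.64 in HP livers with a median of 0.18, and from -1.34 to 0.08 in Control livers with a median of -0.98. The HF livers were close together apart from HF 3 at 0.13, which was above the highest control, Control 4 at 0.08, by a small margin. The HP and Control livers spread much more widely, and 5 of 6 HF livers lay above the highest HP liver. Kcnh1 averaged 0.61 ± 0.25 in HF, 0.09 ± 0.51 in HP and -0.81 ± 0.54 in Control livers (SD). The HF minus Control difference was 1.43 ± 0.23 (log2, SE), rank 41, and the HF minus HP difference was 0.52 ± 0.24, rank 737. Signals were 9.86 to 15.3 times background in HF, 4.02 to 11.7 times in HP and 2.20 to 8.04 times in Control livers. The HF minus Control difference was 0.95, 1.32 and 1.99 within slides 1, 3 and 4. It was 2.23 with processed signals and 1.17 with normexp on every spot. Within slide 4 the HF minus HP difference was 0.65, and with slide as a fixed block 0.31. None of 5 neuron markers on the array passed the filter on dim probes.

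The muscle Z-disc gene Ky had log2 ratios from -1.87 to -0.56 in HF livers with a median of -1.52, from -0.80 to 0.34 in HP livers with a median of -0.05, and from 0.21 to 1.68 in Control livers with a median of 0.47. HF 6 was far above the other 5 HF livers, and Control 7 was far above the other 6 controls. All 6 HF livers lay below the lowest control and 5 lay below the lowest HP liver. Ky averaged -1.44 ± 0.47 in HF, -0.07 ± 0.41 in HP and 0.60 ± 0.51 in Control livers (SD). The HF minus Control difference was -2.03 ± 0.24 (log2, SE), rank 16, and the HF minus HP difference was -1.37 ± 0.25, rank 51.

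The Ky signal of HF livers was near background: 1.56 to 5.97 times it, with a median of 1.83, and not well above it in HF 3. In HP livers it was 4.19 to 11.2 times and in Control livers 12.6 to 31.2 times background. The size of the Ky difference moved with the treatment of background. HF minus Control was -3.95 with processed signals, -2.64 with a normexp offset of 16 in place of 50, and -2.65 in the authors' series matrix. HF minus HP was -3.14, -1.88 and -1.90 in the same order. Within slides 1, 3 and 4 HF minus Control was -2.15, -1.94 and -1.70, and within slide 4 HF minus HP was -1.55. Of 5 skeletal muscle markers on the array, Acta1, Ckm, Myh4 and Tnnt3 did not pass the filter on dim probes. The myoglobin gene Mb, the fifth, ranged from -0.06 to 0.16 in HF, from 0.04 to 0.19 in HP and from 0.01 to 0.16 in Control livers.

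**Figure D2:**
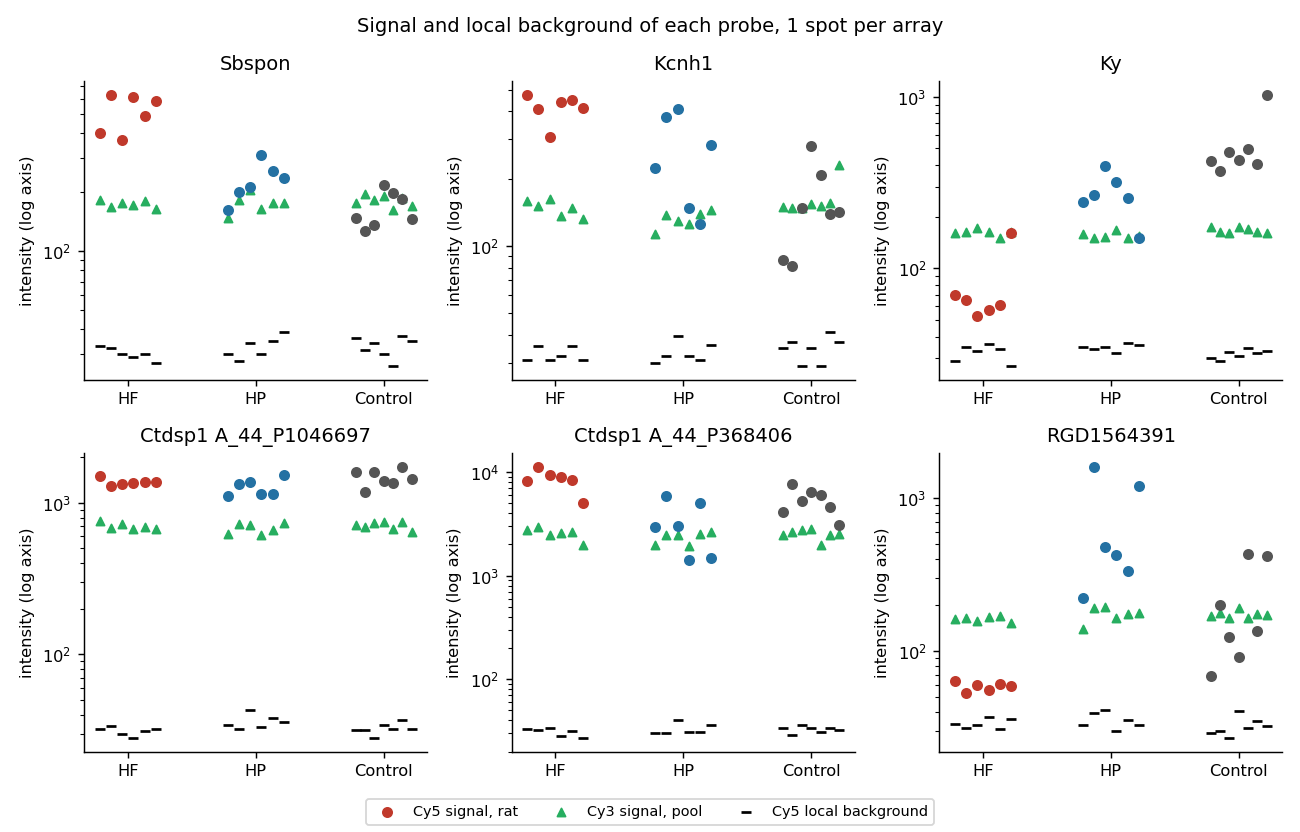
Mean spot intensity on a log axis for the 6 probes, 1 spot per array, in HF, HP and Control livers. Filled circles are the rat's Cy5 signal (red HF, blue HP, grey Control), green triangles the Cy3 signal of the pool and black dashes the local Cy5 background. The Ky and RGD1564391 circles of HF livers lie closest to background, with medians of 1.83 and 1.76 times it, and in these 2 panels the pool's Cy3 signal lies between 139 and 194.

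The Ctdsp1 probe A_44_P368406 had log2 ratios from 0.35 to 0.95 in HF livers with a median of 0.57, from -2.02 to 0.03 in HP livers with a median of -0.66, and from -0.79 to 0.49 in Control livers with a median of -0.23. All 6 HF livers lay above all HP livers, and 4 of 6 lay above the highest control. Means were 0.62 ± 0.24 in HF, -0.81 ± 0.75 in HP and -0.14 ± 0.48 in Control livers (SD). The HF minus HP difference was 1.43 ± 0.28 (log2, SE), rank 43, and the HF minus Control difference was 0.77 ± 0.27, rank 210. This probe was bright, at 187 to 353 times background in HF, 41.1 to 198 times in HP and 95.3 to 265 times in Control livers. Within slide 4 HF minus HP was 1.29, and within slides 1, 3 and 4 HF minus Control was 0.60, 0.72 and 1.04.

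The other Ctdsp1 probe, A_44_P1046697, had log2 ratios from -0.12 to 0.10 in HF, from -0.35 to 0.13 in HP and from -0.17 to 0.16 in Control livers, with medians of -0.04, -0.16 and -0.10. The 3 groups overlapped. The HF minus Control difference was 0.02 ± 0.07 (log2, SE), rank 21170, and the HF minus HP difference was 0.13 ± 0.07, rank 8216. Its signal was 30.0 to 57.3 times background over the 19 arrays. The sign of HF minus Control turned with median centring in place of loess (-0.02), so no direction is given for this probe.

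The gap between the Ctdsp1 probes, A_44_P368406 minus A_44_P1046697 on the log2 ratio scale, was 0.25 to 0.96 in HF, -1.92 to 0.28 in HP and -0.95 to 0.67 in Control livers. Over the 19 livers the log2 ratios of the probes had a correlation of -0.07 (Pearson), and -0.62 with diet means removed. The files thus gave 2 readings under the Ctdsp1 name that did not move together, and which transcript each probe binds was not tested.

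The predicted locus RGD1564391 had log2 ratios from -1.85 to -1.52 in HF livers with a median of -1.63, from -0.07 to 1.90 in HP livers with a median of 0.48, and from -1.73 to 0.41 in Control livers with a median of -0.90. The HF livers formed a tight group below every HP liver. HP 2 (1.90) and HP 6 (1.63) were the highest of all rats, Control 5 (0.31) and Control 7 (0.41) lay among the HP values, and Control 1 (-1.73) lay among the HF values. Means were -1.66 ± 0.11 in HF, 0.74 ± 0.84 in HP and -0.71 ± 0.83 in Control livers (SD). The HF minus HP difference was -2.40 ± 0.37 (log2, SE), rank 10, and the HF minus Control difference was -0.96 ± 0.35, rank 118.

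In HF livers the RGD1564391 signal was only 1.52 to 1.98 times background and well above it in 3 of 6 livers, so the log2 ratios of this group lie close to the floor set by the offset. In HP livers the signal was 6.77 to 40.6 times background and in Control livers 2.24 to 13.7 times. With processed signals HF minus HP was -4.77 and HF minus Control was -2.50, and with an offset of 16 HF minus HP was -3.12. HF minus Control was -0.73 and -0.77 within slides 1 and 3. Within slide 4 it was 0.11, from HF 1 against Control 1 alone, and with slide as a fixed block it was -0.62. HF minus HP within slide 4 was -1.93.

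Over all kept probes, 3.46% passed an adjusted p of 0.05 between HF and Control livers and 7.08% between HF and HP livers. Groups did not overlap for 1.9% of the 25093 probes with a value in every HF and Control liver, and for 3 of the 6 member probes. Between HF and HP livers this was 5.01% of 25150 such probes and 2 of the 6 member probes. The members were chosen from these contrasts, so nothing is read from either count.

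**Figure D3:**
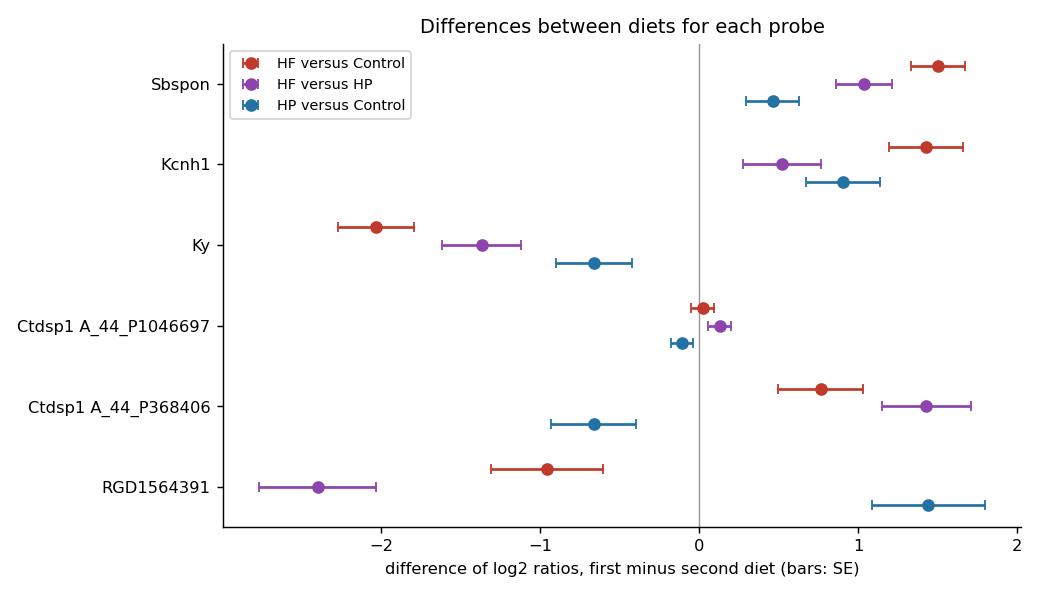
Difference of log2 ratios, first minus second diet (horizontal axis), for the 6 probes in the 3 comparisons. Points are estimates of the linear model and bars their SE. HP minus Control lies on the same side of 0 as HF minus Control for Sbspon, Kcnh1 and Ky, and on the other side for Ctdsp1 A_44_P368406 and RGD1564391.

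The comparison of HP with Control livers is the one the choice did not use directly. It shares its arrays with the other 2 and equals the HF minus Control difference less the HF minus HP difference, so it is not independent of the choice. No member probe passed limma's moderated test after Benjamini-Hochberg adjustment over all probes, at a background of 0.447% called (113 of 25292, median difference over all probes -0.01). At an unadjusted p under 0.05 the count was 5 of 6 member probes, at a background of 14.4%. The choice itself favours such differences, so nothing is read from this count. Means were higher in HP livers for 3 member probes and lower for the other 3, and the groups overlapped for all 6. The model pools the spread within all 3 diets, and HF livers had the smallest SD for RGD1564391, Kcnh1 and both Ctdsp1 probes. The SE of these probes between HP and Control livers is thus smaller than those groups alone would give.

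RGD1564391 differed by 1.44 ± 0.35 between HP and Control livers (log2, SE, adjusted p = 0.0774, unadjusted p = 0.000609), rank 4 by size among all kept probes, with 3 of 6 HP livers above the highest control. This SE and these p-values also draw on the SD of HF livers near the floor, 0.11, against 0.84 in HP and 0.82 in Control livers. The adjusted p was 0.0233 without Control 7 and between 0.0233 and 0.173 over the omissions of 1 rat. It was 0.0369 with Control 6 and Control 7 left out together, a choice made after seeing the data. With processed signals the RGD1564391 difference was 2.27 (adjusted p = 0.108). Within slides 2, 4 and 5 it was 0.58, 2.04 and 2.08.

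Kcnh1 differed by 0.91 ± 0.23 between HP and Control livers (adjusted p = 0.0905, unadjusted p = 0.00102), rank 49, with 4 of 6 HP livers above the highest control. The adjusted p was 0.0467 without HP 5, 0.0379 without Control 4 and up to 0.196 over the other omissions. With processed signals the Kcnh1 difference was 1.51. Within slides 2, 4 and 5 it was 0.75, 1.34 and 1.34, all in the same direction.

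For the other member probes the HP minus Control difference was smaller. It was 0.46 ± 0.17 for Sbspon (adjusted p = 0.212, 95% interval 0.11 to 0.81) and -0.66 ± 0.24 for Ky (adjusted p = 0.205, interval -1.16 to -0.16). For Ctdsp1 it was -0.66 ± 0.27 with A_44_P368406 (adjusted p = 0.262, interval -1.22 to -0.10) and -0.11 ± 0.07 with A_44_P1046697 (adjusted p = 0.510, interval -0.25 to 0.04). Within slides 2, 4 and 5 it was 0.20, 0.97 and 0.32 for Sbspon and -1.13, -0.14 and -0.44 for Ky. The Sbspon value was 0.27 with normexp on every spot (adjusted p = 0.588) and 0.74 with processed signals (adjusted p = 0.184). With A_44_P368406 it was 0.10, -0.25 and -1.11, so the direction turned on slide 2. The A_44_P368406 value was -0.42 without HP 6 and -0.39 with slide as a fixed block. The A_44_P1046697 value was -0.16 without HP 4, -0.07 without HP 5, -0.06 with Cy5 alone and -0.06 without both Control 6 and Control 7. With A_44_P1046697 it was -0.31, 0.10 and -0.14, so the direction turned on slide 4.

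The members also varied among rats of 1 diet. The SD within diets was 0.33 for Sbspon, 0.46 for Kcnh1, 0.47 for Ky, 0.53 for Ctdsp1 A_44_P368406 and 0.69 for RGD1564391, against a median of 0.13 over all kept probes. These SDs were larger than those of 92.9%, 97.0%, 97.1%, 97.8% and 99.0% of the kept probes. Ctdsp1 A_44_P1046697 had an SD of 0.13, larger than 43.6% of them. Between Sbspon and Kcnh1 the correlation over 19 livers was 0.72, and with diet means removed 0.12. Between Sbspon and Ky it was -0.76 and 0.25, and between Kcnh1 and Ky -0.68 and 0.04. All 3 correlations were weaker with diet means removed, and all points share the same pool channel.

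Each member was set beside the named genes whose log2 ratios correlated most with it over the 19 livers, as a description with no test. Sbspon ran closest to Pold4, a DNA polymerase subunit (0.93), the sorbitol dehydrogenase gene Sord (0.91) and the metalloprotease gene Adam15 (0.90), and most opposite to Acp3 (-0.88), Uchl3 (-0.87) and the stearoyl-CoA desaturase gene Scd (-0.87). Kcnh1 ran closest to the amino acid transporter gene Slc43a1 (0.91), the bile acid synthesis gene Cyp7a1 (0.85) and Higd1a (0.85), and most opposite to Pdpr (-0.85), Mif (-0.81) and Znrf1 (-0.80). Ky ran closest to the homeobox gene Lhx8 (0.92), the desaturase gene Scd2 (0.88) and the transketolase gene Tkt (0.88), and most opposite to Dhrs1 (-0.94), the purine nucleoside phosphorylase gene Pnp (-0.88) and Cdig1l (-0.87). Members chosen for their diet difference thus ran beside other genes that differed by diet: HF minus Control was -5.17 for Scd, -2.91 for Scd2 and 2.24 for Cyp7a1.

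Ctdsp1 A_44_P368406 ran closest to RGD1565455 (0.91), the RNA helicase gene Ddx6 (0.87) and the deubiquitinase gene Usp7 (0.86), and most opposite to Chmp1a (-0.84), Lyrm1 (-0.83) and Traf3ip2 (-0.82). Ctdsp1 A_44_P1046697 ran beside other genes, Lrrc8d (0.81), Nkx2-4 (0.79) and Rph3al (0.77), and opposite to Ube2v2 (-0.78), Msx1 (-0.78) and Eif5 (-0.76). RGD1564391 ran closest to Gfus (0.87), the protein kinase C gene Prkce (0.85) and the glycolytic mutase gene Pgam1 (0.85), and most opposite to the RNA-binding protein genes Chtop (-0.88) and Hnrnpu (-0.85) and to the adenylate cyclase gene Adcy6 (-0.85).

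With diet means removed, the closest genes were mostly others. They were Rnft2 (0.81), Or10j3b (0.75) and Prelp (0.75) for Sbspon, Dmrta2, Lrp1 and Akr1b7 (all 0.81) for Ky, and Gipc1 (0.86), Tsacc (0.83) and Caly (0.82) for Ctdsp1 A_44_P1046697. Slc43a1 stayed closest to Kcnh1 (0.79), ahead of Slc1a7 (0.75) and Pdzd2 (0.72). RGD1565455 stayed closest to Ctdsp1 A_44_P368406 (0.83), ahead of Ascc3 (0.82). Hectd3 was closest to RGD1564391 (0.89), ahead of Pycr1 (0.76) and Prkce (0.75).

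Genes related to the members by family or setting mostly did not pass the test. Each was read from 1 kept probe, that of the highest mean signal, and other probes of these genes were not compared. Of 32 extracellular proteins with thrombospondin type 1 or somatomedin B domains, 28 were on the array and 21 kept, and 1 rose in HF against Control livers, where 1.72% of all probes were called higher. This was Enpp2, which encodes the lysophospholipase D autotaxin (0.65 ± 0.15, adjusted p = 0.0142, and 0.0516 with a replicate block). Thbs2 (0.22, adjusted p = 0.117) and Rspo3 (0.32, adjusted p = 0.175) came next. The list's median was 0.06 between HF and Control livers, against -0.01 over all probes. No gene of the list passed in the other comparisons by limma. Of all probes, 7.08% were called between HF and HP and 0.447% between HP and Control livers. At an unadjusted p under 0.05 there were 3 of 21 between HF and Control, 6 between HF and HP and 0 between HP and Control livers. The shares over all probes were 15.7%, 20.2% and 14.4%.

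Of 55 potassium channel genes 16 were kept. Kcnk2, a background potassium channel gene, fell by 0.82 in HF livers against Control livers (SE 0.20, adjusted p = 0.0277), where 1.73% of all probes were called lower, while Kcnj11 (-0.22, adjusted p = 0.144) and Kcnh4 (0.13, adjusted p = 0.297) did not pass. Kcnk2 was -0.12 between HF and HP livers (adjusted p = 0.843) and -0.70 between HP and Control livers (adjusted p = 0.126). The Kcnk2 call between HF and Control livers was lost without HF 1, HF 2 or HF 4 and without Control 1, 2, 3 or 4 (adjusted p up to 0.0783). It was also lost with processed signals, where the difference was -1.73 (adjusted p = 0.0541), and with slide as a fixed block (-1.01). Kcnj3, named after its value was seen, rose in HF against HP livers (0.37 ± 0.11, adjusted p = 0.0442), where 3.27% of all probes were called higher. The Kcnj3 call was lost in 14 of 19 omissions of 1 rat (adjusted p up to 0.0962), that is in all but those of HP 5 and Control 2, 5, 6 and 7, and in 6 of 15 other settings. No potassium channel gene passed between HP and Control livers by limma, where 0.447% of all probes were called. At an unadjusted p under 0.05 there were 3 of 16 between HF and Control, 4 between HF and HP and 3 between HP and Control livers. The shares over all probes were 15.7%, 20.2% and 14.4%. The median difference lay between -0.04 and 0.01 in the 3 comparisons.

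A list of 43 muscle genes held genes of the Z-disc and sarcomere and also of calcium handling (Ryr1, Atp2a1, Casq2), energy supply (Eno3, Pygm, Mb) and protein breakdown (Fbxo32). Of these 43 genes 37 were on the array and 18 kept, and none passed in any comparison by limma. Of all probes, 3.46% were called between HF and Control, 7.08% between HF and HP and 0.447% between HP and Control livers. At such shares, no call among 18 genes says little about them. At an unadjusted p under 0.05 there were 1 of 18 between HF and Control, 3 between HF and HP and 4 between HP and Control livers, where the shares over all probes were 15.7%, 20.2% and 14.4%. The smallest p-values between HF and Control livers belonged to the troponin gene Tnnc2 (0.22, adjusted p = 0.317), the ubiquitin ligase gene Fbxo32 (-0.13, adjusted p = 0.354) and Tnnc1 (0.16, adjusted p = 0.439). The median of this list was 0.01 between HF and Control livers, -0.03 between HF and HP livers and 0.06 between HP and Control livers.

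The list around Ctdsp1 held 33 genes, of which 26 were kept. It covers RNA polymerase II subunits with phosphatases and kinases of their tail and members of the REST complex, and also Smad genes, Snai1 and Rb family genes, which encode known targets of such phosphatases, and Slc11a1 and Vil1, which are neither. The corepressor gene Sin3a rose between HF and Control livers (0.39 ± 0.09, adjusted p = 0.0144) and between HF and HP livers (0.61 ± 0.09, adjusted p = 0.000287), which share the HF arrays. Of all probes, 1.72% and 3.27% were called higher in these comparisons. The Sin3a call between HF and Control livers was lost when slide was a fixed block (0.38, adjusted p = 0.0946) and with a replicate block (0.36, adjusted p = 0.0624). Ssu72, a phosphatase of the same polymerase tail, fell by 0.41 in HF against HP livers (SE 0.07, adjusted p = 0.00115), where 3.81% of all probes were called lower. The Ssu72 call was lost when slide was a fixed block (-0.34, adjusted p = 0.0690). Ssu72 was -0.20 between HF and Control livers (adjusted p = 0.121). Rprd1a was -0.31 between HF and Control livers (adjusted p = 0.100). No member of this list passed between HP and Control livers by limma, where 0.447% of all probes were called. At an unadjusted p under 0.05 there were 4 of 26 between HF and Control, 7 between HF and HP and 3 between HP and Control livers. The shares over all probes were 15.7%, 20.2% and 14.4%. The medians of the list lay between -0.02 and 0.01.

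**Figure D4:**
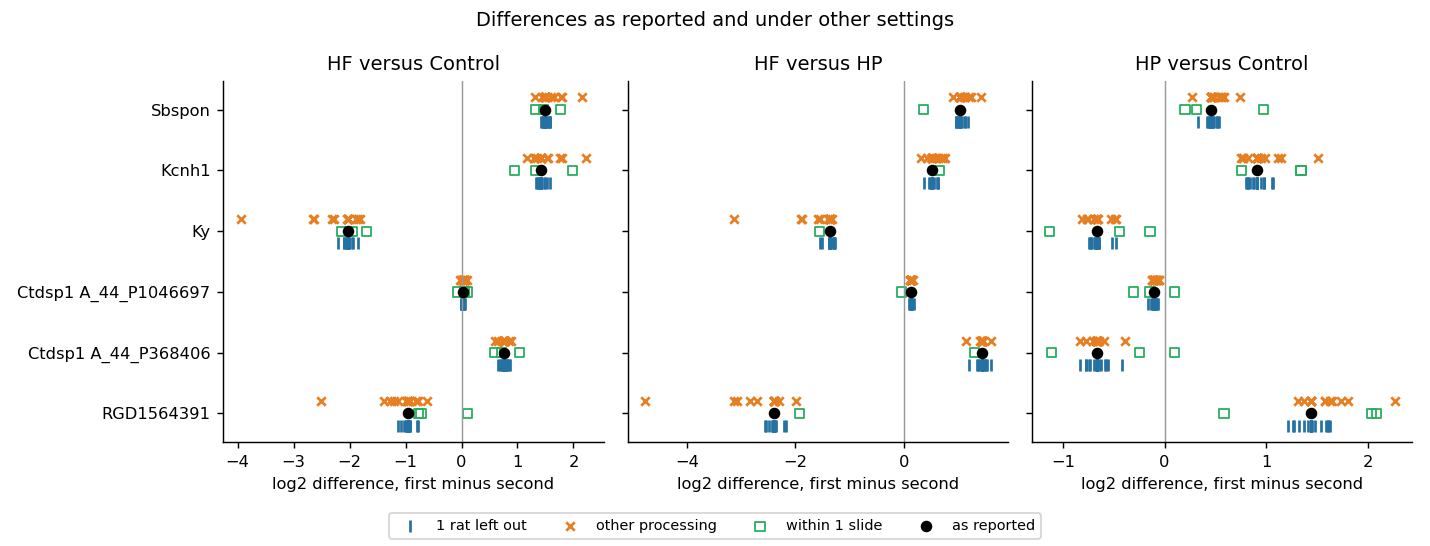
Difference of log2 ratios, first minus second diet (horizontal axes), of the 6 probes as reported (black circles), with 1 rat left out (blue ticks), with another processing or model (orange crosses) and within single slides (open green squares). Ky and RGD1564391 spread farthest among the crosses, where processed signals gave -3.95 for Ky between HF and Control livers and -4.77 for RGD1564391 between HF and HP livers.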

How the data were processed

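Liver RNA of 19 rats was measured on Agilent 2-colour arrays with no dye swaps. Per the file headers, the authors deposited scanner files with spot and local background intensity from Agilent Feature Extraction 10.5.1.1. Their series matrix, also deposited, gives log2 values of 22764 spots at a column median of 8.20. Within each array these values followed the log2 Cy5 signal (r 0.996 to 0.999). With each spot's mean over the arrays removed, the values followed the Cy5 to Cy3 ratio (r 0.973 to 0.998 per array). The processing of the matrix is not given in the sources used here, and the matrix served as an alternative.

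In R 4.3.3 with limma 3.58.1, normexp (offset 50) was run on mean signals and background medians, and 40 spots with local background more than 50 above the signal were dropped. Log2 ratios were normalised by loess within arrays, spots of a probe were averaged, and probes with Cy5 well above background on 6 or more of the 19 arrays were kept (25292). After loess and before averaging, spots flagged as non-uniform or as population outliers in either channel were set to missing. On HF 3, 2 spots could not be read. One linear model over the 3 diets with moderated two-sided tests (16 residual and 3.32 prior degrees of freedom) was adjusted by Benjamini-Hochberg over all kept probes. It was tested on simulated data.

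Probes were named by accession (11140), symbol (5117), synonym (3424) or the name in the files (947). The members and gene lists were chosen with earlier results of these data known. Each gene of a list or marker set was read from 1 kept probe, that of the highest mean signal. Named genes were the members, the 3 closest and 3 most opposite genes of each probe, the 3 closest with diet means removed, and the 3 smallest p-values per list between HF and Control livers, and 1 result under this rule is not reported here. Spot precision is limited by the number of arrays. Alternatives were other background, scaling, filter and model choices, slides as blocks and omissions of single rats.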

Additional observations from a re-analysis of the deposited data

Results flagged for a closer look

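For each of the 6 probes the log2 ratio and the normalised Cy3 signal of each diet group were checked for a rat far from the others, by the gap to the nearest rat over the range of the group. Of 36 groups 5 stood out, and chance marks about 1 in 20. For Kcnh1, HF 3 had a log2 ratio of 0.13, and the nearest HF liver had 0.65. For Ky, Control 7 had a log2 ratio of 1.68, and the nearest control had 0.71. Without Control 7 the HF minus Control difference of Ky was -1.85. For Kcnh1 the normalised Cy3 signal of the pool, on the log2 scale, was 8.31 on the Control 7 array and 7.83 on the nearest control array, while the Cy5 signal of the Control 7 array (142) lay within the range of the other controls. The Kcnh1 log2 ratio of Control 7 (-1.32) was thus lowered by the pool channel. Over omissions of 1 rat the HF minus Control difference of Kcnh1 was 1.34 to 1.57. For Ctdsp1 A_44_P368406 the normalised Cy3 signal was 11.46 on the HF 6 array, with the nearest at 11.82, and 11.58 on the Control 5 array, with the nearest at 11.84.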

How the results depend on the processing

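Between HF and Control livers 874 probes passed, 474 with slide as a fixed block and 330 with an unmoderated test with unequal spreads. Between HF and HP livers 1791 passed, and 365 with slide as a fixed block. Between HP and Control livers 113 passed (78 higher). This count was 61 (32 higher) with normexp on every spot, 54 with processed signals, 63 with Cy5 alone, 71 with an offset of 16, 32 (27 higher) with median centring, 24 (21 higher) with slide as a fixed block, 209 with a replicate block and 0 with unequal spreads (3633 at an unadjusted p under 0.05 in limma). In the authors' matrix 90 passed (81 higher). With Control 6 and Control 7 left out together, chosen after seeing the data, it was 364 (210 higher). With median centring, 285 of 748 were higher between HF and Control livers and 518 of 1443 between HF and HP livers, against 436 of 874 and 827 of 1791. Leaving out 1 rat gave 649 (without HF 2) to 999 (without Control 6), 1332 (without HP 2) to 2518 (without Control 6) and 26 (without HP 2) to 460 (without Control 7) in the 3 comparisons. The cause was not tested.

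Ctdsp1 A_44_P1046697 turned sign between HF and Control livers with median centring (-0.0192), with slide as a fixed block (-0.0116), within slide 3 (-0.0745), without HF 6 (-0.0014) and without Control 2 (-0.00025), and reached 0.0556 without Control 7. It also turned between HF and HP livers within slide 4 (-0.0489) and between HP and Control livers within slide 4 (0.10). Ctdsp1 A_44_P368406 turned between HP and Control livers within slide 2 (0.10), and RGD1564391 between HF and Control livers within slide 4 (0.11). Sbspon, Kcnh1 and Ky kept their direction in all 3 comparisons under every alternative run. These genes were chosen for large HF differences on the same arrays, so nothing is read from this for the HF comparisons. The labels give no pairing. With diet means removed, like-numbered rats of different diets had a mean correlation of -0.0092 over 18 pairs, against 0.0011 over 102 other pairs, and for 5 of 19 rats the closest rat of another diet had the same number. With the replicate block, in which Control 7 stands alone, RGD1564391 passed between HP and Control livers (1.63, adjusted p = 0.0403). Signals near background limit Ky and RGD1564391 in HF livers, and Kcnh1 in Control 1 and Control 2 (2.46 and 2.20 times background).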
